A study of Arabidopsis thaliana and Ginkgo biloba and Brassica rapa with 13 samples.

Results

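Nuclear LSU 25S rRNA, the main RNA of the large subunit of the cytoplasmic ribosome, was listed with 2 candidate 5-methylcytosine (m5C) sites, C2268 and C2860. They are both rows named Nuclear-25S rRNA among the 16 rRNA sites of the deposited table, numbered from the 5′ end of the Arabidopsis thaliana reference, and were set beside the 25S reference sequences of the 6 species. Methylation was measured by RNA bisulfite sequencing (RBS-seq), in which bisulfite converts unmethylated cytosine so that it is read as thymine. A methylation level is the percentage of mapped bases at a position that remained cytosine.

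All samples were total RNA of wild type organisms. Brassica rapa (Br) and Ginkgo biloba (Gb) were sampled as leaf according to the labels and as shoot apex according to the methods of the study. Flag leaf was taken from Triticum turgidum subsp. durum (Td), fronds from the green alga Caulerpa taxifolia (Ct) and growing cells from the unicellular alga Nannochloropsis oculata (No). Each of these 5 species had 1 bisulfite library and 1 RNA-seq library. A. thaliana (At) was represented by seedlings of 10 days and 3 bisulfite libraries, given as the authors' mean. No replicate error and no read depth at a position could be given for any level, and the total reads per library that the study lists were not used here. Species and tissue cannot be told apart.

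Cytosine methylation of nuclear-encoded rRNA is placed by enzymes of the NOL1/NOP2/SUN domain family as ribosomes are assembled in the nucleolus. The enzyme acting at C2268 is NSUN5 in Arabidopsis and Rcm1 at the matching position in budding yeast, where Nop2 acts at the position matching C2860. Arabidopsis has several Nop2 relatives, among them NOP2A (also called OLI2), NOP2B and NOP2C. The study reported wild type levels at C2860 in single mutants of each, and proposes that they do not act there or are redundant. It found no nop2a nop2b double mutant among segregating plants, and proposes that NOP2A and NOP2B may be redundant and essential. Another enzyme, RNMT, is named there as a further candidate for C2860. Both cytosines lie in conserved helices of the large subunit.

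The sequences around the sites are shown to place each cytosine among the bases that are shared by land plants and algae. Each line gives 61 bases, 5′ to 3′, as DNA letters. The capital at the centre is the listed cytosine, and other capitals in the C. taxifolia lines mark bases that differ from A. thaliana.
C2268 in C. taxifolia: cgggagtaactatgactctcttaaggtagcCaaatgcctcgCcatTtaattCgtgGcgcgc
C2268 in A. thaliana: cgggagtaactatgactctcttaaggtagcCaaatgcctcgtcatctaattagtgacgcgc
C2860 in C. taxifolia: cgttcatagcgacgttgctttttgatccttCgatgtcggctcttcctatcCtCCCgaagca
C2860 in A. thaliana: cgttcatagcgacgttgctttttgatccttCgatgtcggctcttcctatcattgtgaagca

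C2268 follows another cytosine and is followed by A, whereas C2860 follows T and is followed by G. The T. durum and G. biloba references were identical to A. thaliana over both windows of 61 bases. N. oculata was identical to A. thaliana around C2268 and had 3 differences around C2860.

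Both cytosines were highly methylated in every species, and all 12 levels were above the 20% used by the authors to call a site. C2268 was 78% in B. rapa, 91% in T. durum, 79% in C. taxifolia, 79% in N. oculata and 77% in G. biloba, against 66% in A. thaliana. T. durum was the highest and A. thaliana the lowest, and the other 4 species lay within 77% to 79%. C2860 was 82% in B. rapa, 82% in T. durum, 86% in C. taxifolia, 86% in N. oculata and 84% in G. biloba, against 82% in A. thaliana. The algae were the highest at C2860, and 3 of the land plants shared the lowest value. With 1 value a species, no pair of neighbours in either order could be tested.

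Levels of C2268 relative to A. thaliana were higher by 25 percentage points in T. durum and by 11 to 13 points in the other 4 species. At C2860 the same differences ran between 0 and 4 points. Over the 6 species C2268 averaged 78.3 ± 7.94% and C2860 averaged 83.7 ± 1.97% (SD over species, n = 6). The range was 25 points for C2268 and 4 points for C2860.

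The 25S rRNA reference of A. thaliana holds 823 cytosines, of which these 2 (0.243%) were listed as methylated. In the whole table, 6 of 16 sites (37.5%) reached 20% in each of the 6 species, and both 25S sites are among them. Nuclear 18S rRNA had 14 listed percentages below the calling level, none of them in T. durum. They are a partial view of non-conversion in the same libraries, at other positions than the 25S sites. These ran from 0.0473% to 3.30%, and 13 of them were below 1%. The lower of the 2 levels in 25S rRNA was 23.9 times the highest of these 18S percentages in C. taxifolia and 220 times in A. thaliana. Over all rRNAs the highest percentage below the calling level was 13.8% in B. rapa and 8% in A. thaliana, against which the lower 25S level was 5.66 and 8.25 times as high. Because only percentages below the calling level were taken, all these ratios exceed 1 by construction and are no test of the 25S sites. The T. durum library stood apart, since all of its 6 listed 18S percentages were between 52% and 53%. Its 1 percentage below the calling level, in mitochondrial rRNA, was 0.126%. Whether non-conversion had a part in the 25S levels of T. durum, including its 91% at C2268, was not tested. Mean paired differences are also given without T. durum, whereas the mean and range of C2268 above include it.

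**Figure D1:**
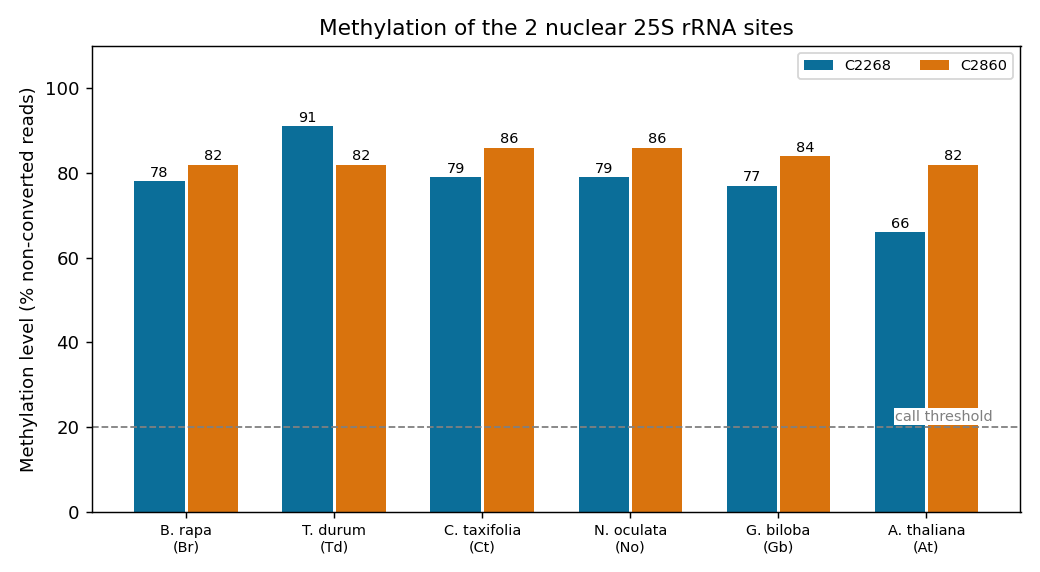
Methylation levels (%) of C2268 and C2860 in nuclear 25S rRNA, with species along the horizontal axis; each bar is 1 library, or the authors' mean of 3 libraries for A. thaliana, drawn without an error bar. C2860 lies between 82% and 86% in all 6 species, while C2268 is 91% in T. durum, at most 79% in the other 4 species and 66% in A. thaliana.

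Whether one of the cytosines was methylated more than the other was asked within each species. C2268 was lower than C2860 in 5 of 6 species. The difference, C2268 minus C2860, was −4 percentage points in B. rapa, −7 in C. taxifolia, −7 in N. oculata, −7 in G. biloba and −16 in A. thaliana. In T. durum it was 9, the only species with the higher level at C2268. The mean difference was −5.33 ± 8.12 points (SD, n = 6), which is smaller than its spread over species, and did not pass an exact two-sided sign-flip permutation test (p = 0.1875, adjusted p = 0.375). There were 4 tests of this kind, over which p-values were adjusted (Benjamini-Hochberg), and 6 species allow no p below 0.03125. A single p at that floor would not pass 0.05 after adjustment, so failure to pass is weak evidence. Without T. durum the mean was −8.2 points and the exact permutation p was 0.0625, the smallest that 5 species allow. Without A. thaliana the mean was −3.2 points (exact permutation p = 0.375), and each other omission gave a p of 0.3125.

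The distance of each species from the median of the site was used to ask whether species varied more at C2268. Distances at C2268 exceeded those at C2860 by 11.5 points in T. durum and 11.5 points in A. thaliana. In the other 4 species the excess was between −2.5 and 0.5 points. The mean excess was 3 ± 6.69 points (SD, n = 6; exact sign-flip permutation p = 0.46875, adjusted p = 0.46875). The wider range of C2268 therefore rests on T. durum and A. thaliana, and the mean excess was 1.4 points when either was left out.

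The levels alone limit how many 25S rRNA molecules could carry both marks, since the libraries do not link the sites on 1 molecule. The share with both marks lies between 60% and 78% in B. rapa, between 73% and 82% in T. durum and between 61% and 77% in G. biloba. It lies between 65% and 79% in both algae, and between 48% and 66% in A. thaliana. These bounds come from the percentages as deposited and do not include counting error.

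Chloroplast 23S rRNA is the other rRNA with a pair of sites above 20% in all 6 species, C1940 and C1977, and was used to ask whether the 25S pair stands apart in level. The mean of the 25S pair was 80% in B. rapa, 86.5% in T. durum, 82.5% in C. taxifolia, 82.5% in N. oculata, 80.5% in G. biloba and 74% in A. thaliana. The mean of the 23S pair was 86.5% in B. rapa, 89.5% in T. durum, 81.5% in C. taxifolia, 84.5% in N. oculata, 87.5% in G. biloba and 76% in A. thaliana. The 25S pair was lower in 5 species, by 2 points in N. oculata and A. thaliana up to 7 points in G. biloba, and higher by 1 point in C. taxifolia. The mean difference, 25S minus 23S, was −3.25 ± 3.03 points (SD, n = 6), and its exact sign-flip permutation p was 0.0625, adjusted to 0.25. Without T. durum the mean difference was −3.3 points. On the logit scale, which stretches differences near 100%, the same test gave an unadjusted exact p of 0.03125. This is the smallest p that 6 species allow, and it requires all differences to lie on the same side of 0. C. taxifolia, 1 point above 0 in percentages, therefore fell below 0 on the logit scale, and the lower p rests on that change. The sign-flip test on the median difference gave a p of 0.1875. With each species left out in turn, the exact permutation p was 0.0625 to 0.125.

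The upstream site was also the lower one in chloroplast 23S rRNA. C1940 minus C1977 was −7 points in B. rapa, −3 in T. durum, −17 in C. taxifolia, −7 in N. oculata, −5 in G. biloba and −12 in A. thaliana. The signed gap of the 25S pair minus that of the 23S pair was 12 points in T. durum and 10 points in C. taxifolia. It was 3 points in B. rapa, 0 in N. oculata, −2 in G. biloba and −4 in A. thaliana. A positive value means that the upstream site lay less far below the downstream site in 25S rRNA, or above it as in T. durum. The mean was 3.17 ± 6.52 points (SD, n = 6; exact sign-flip permutation p = 0.375, adjusted p = 0.46875), so the sites of 25S rRNA were not shown to differ from each other otherwise than those of 23S rRNA. Without T. durum the mean was 1.4 points. A. thaliana had the lowest mean of both pairs and T. durum the highest of both.

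**Figure D2:**
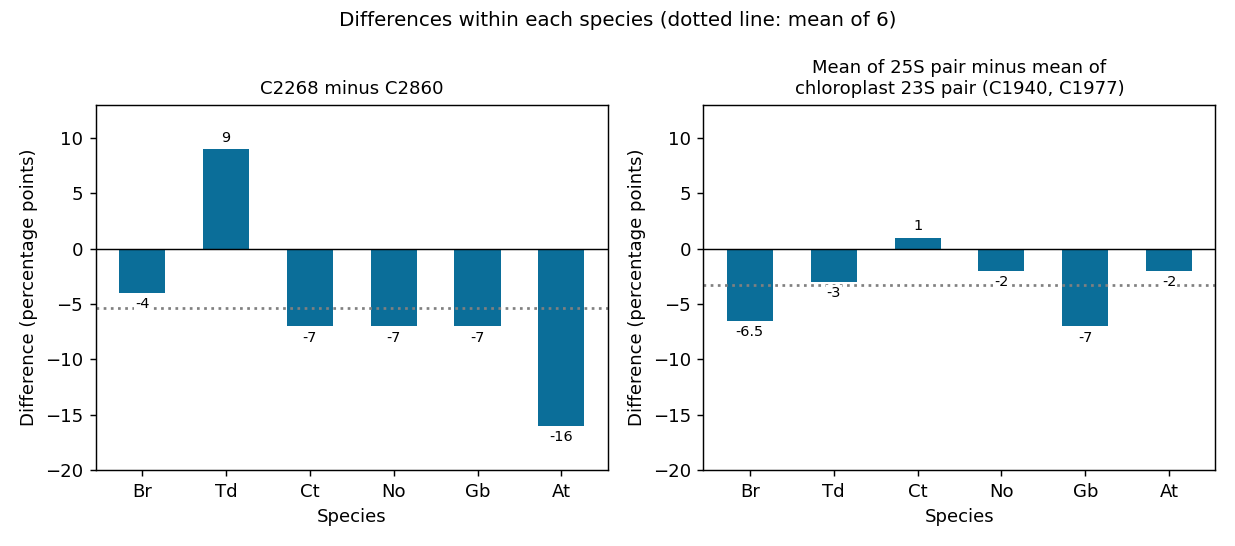
Differences in methylation level (percentage points) within each species, C2268 minus C2860 at left and the mean of the 25S pair minus the mean of the chloroplast 23S pair at right; bars are species and the dotted line is their mean. T. durum, at 9, is the only species above 0 at left, and C. taxifolia, at 1, the only one at right.

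The reference sequences were compared to ask how far the surroundings of the sites were shared. Per the deposited table, the 25S reference of A. thaliana is a database entry, and the 5 others were built from RNA-seq reads with that entry as a guide. Identity to A. thaliana can therefore be partly built in, and how much was not tested. The 25S references were 3393 bases in B. rapa, 3383 in T. durum, 3300 in C. taxifolia, 3306 in N. oculata and 3393 in G. biloba, against 3375 in A. thaliana. In own numbering C2268 is position 2273 in T. durum, 2209 in C. taxifolia, 2208 in N. oculata and 2276 in G. biloba. C2860 is position 2870 in T. durum, 2790 in C. taxifolia, 2798 in N. oculata and 2872 in G. biloba. The sites lay 597 bases apart in T. durum, 581 in C. taxifolia, 590 in N. oculata and 596 in G. biloba, against 592 in A. thaliana. Between 508 and 521 bases follow C2860.

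The sequence listed for B. rapa was the same as that of G. biloba over all 3393 bases, although the table of levels gives B. rapa a length of 3388. Of 11 rRNA references listed for both species, 4 were identical, namely those of mitochondrial 26S, chloroplast 23S, nuclear 25S and nuclear 18S rRNA. The sequence listed for both had 88.9% identity to A. thaliana in 25S rRNA, against 90.0% for T. durum. The plots by distance show it once, while averages over species count it for both. Which sequence the B. rapa levels rest on is therefore in doubt. The effect of the reference on those levels was not tested.

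Both positions hold a cytosine in every reference, as do 456 of the 823 cytosines of A. thaliana 25S rRNA (55.4%). The 10 bases on each side of C2268 were identical in all references, and those of C2860 were identical in all but N. oculata. Identity to A. thaliana averaged 100% around C2268 and 99% around C2860 (98.75% without B. rapa), against a median of 86% over the 817 cytosines with full flanks. Of these cytosines, 42 (5.14%) had flanks identical in all references. N. oculata differed once near C2860, by C2856T, where the A. thaliana base comes first and the position is counted on its reference. The bisulfite references had every cytosine changed to thymine, and in that form the flanks of 10 bases had 0 differences in every species at both sites.

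The identical stretch around C2268 ran over 46 bases, from 2233 to 2278, with 35 bases before the site and 10 after it. Only 2 of 527 identical runs in the alignment were longer, up to 55 bases, and 31 cytosines (3.77%) lay in a run at least this long. N. oculata, with 81.4% identity to A. thaliana over the whole 25S reference, was identical to it over 163 bases around C2268 and over 29 bases around C2860. The stretch around C2860 ran over 23 bases, from 2857 to 2879, with 3 bases before the site and 19 after it. Runs at least that long held 116 cytosines (14.1%). C. taxifolia set the end of both stretches on the downstream side, by T2279C for C2268 and A2880C for C2860, and N. oculata set the upstream end of the stretch at C2860. Within 30 bases, C. taxifolia had 4 differences at each site, all of them downstream.

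**Figure D3:**
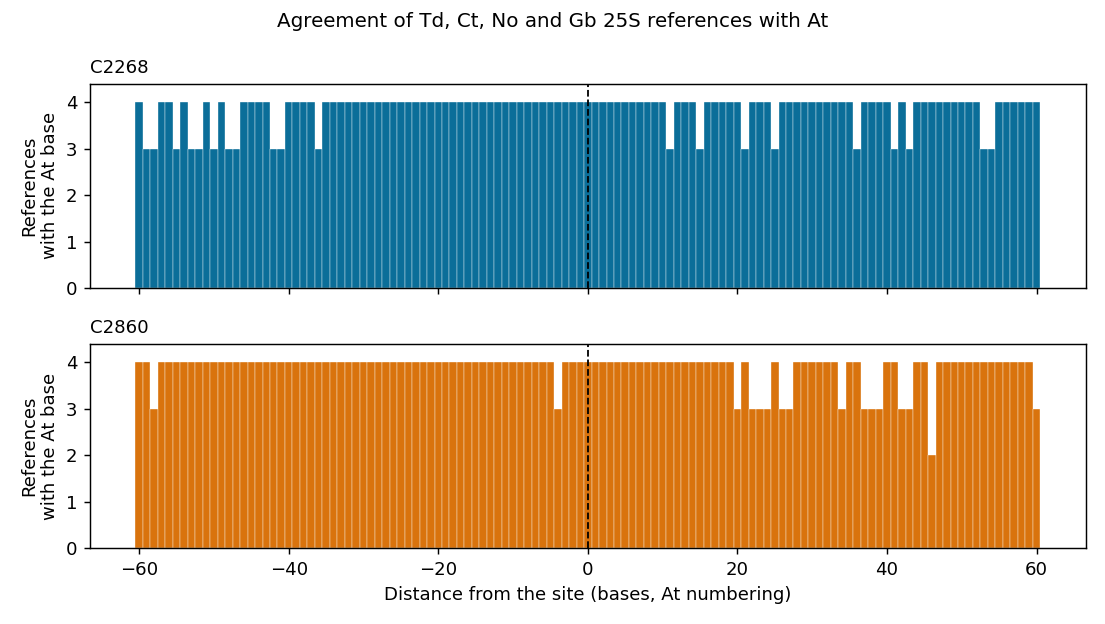
Number of the 4 references of T. durum, C. taxifolia, N. oculata and G. biloba with the A. thaliana base, by distance from C2268 (above) and C2860 (below) in bases; B. rapa is left out because its listed sequence is that of G. biloba. All 4 agree from 35 bases before to 10 bases after C2268, and from 3 bases before to 19 after C2860.

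Neighbouring cytosines were not listed as methylated in any species. C2268 has another cytosine directly before it and the next one 6 bases after it, and 4 others within 10 bases in each reference. C2860 has cytosines 3 bases before and 6 bases after it, with 3 others within 10 bases in N. oculata and 4 in the other species. Within 30 bases there were 14 or 15 other cytosines around C2268 and between 14 and 18 around C2860. The loss of these cytosines on conversion is shown by the A. thaliana sequence of 31 bases around each site, where the capital is the listed position and is read as C on a methylated molecule and as T on an unmethylated one.
C2268 converted, methylated: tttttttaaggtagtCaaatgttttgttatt
C2268 converted, unmethylated: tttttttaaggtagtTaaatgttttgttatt
C2268 untreated: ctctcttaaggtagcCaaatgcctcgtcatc
C2860 converted, methylated: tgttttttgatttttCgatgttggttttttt
C2860 converted, unmethylated: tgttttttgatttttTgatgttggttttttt
C2860 untreated: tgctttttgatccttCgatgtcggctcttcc

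Of the 10 cytosines in the untreated C2268 sequence and the 9 in that of C2860, 1 remains after conversion of a molecule methylated at the listed site. Converted references were searched for the longest stretch through each site that also occurs in another rRNA of the same species. It was 9 to 12 bases for C2268. For C2860 it was 15 bases in both algae and 18 bases in the other species, and lay in chloroplast 23S rRNA.

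On the large subunit rRNAs of the Arabidopsis organelles, C2268 aligned with a G, at position 1950 of chloroplast 23S and position 1559 of mitochondrial 26S rRNA. C2860 aligned with a cytosine in both, at position 2519 of chloroplast 23S and position 2112 of mitochondrial 26S rRNA, and neither of these is a listed site. Identity over 15 bases on each side was 73.3% and 76.7% for C2268 and 66.7% and 63.3% for C2860, in chloroplast and mitochondrial rRNA in that order. In the other direction, chloroplast C1940 aligned with T at 2258 of 25S rRNA, 10 bases upstream of C2268, and C1977 aligned with G at 2295, 27 bases downstream of it. Both of these chloroplast cytosines thus fall beside C2268 in the alignment, and none falls beside C2860.

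In the TAIR10.1 assembly of A. thaliana, the 61 bases around C2268 matched exactly once, at chr3:14202353-14202413 on the plus strand, with the site at 14202383. The window around C2860 matched on the plus strand at chr3:14202945-14203005, with the site at 14202975, and at chr2:8974-9034, with the site at 9004. The chromosome 2 copy of the C2268 window, at chr2:8382-8442 with the site at 8412, differed from the 25S reference by C2238T, 30 bases upstream of the site. Both sites fall in genes annotated as miscellaneous RNA, AT3G06365 at 14200215 to 14204208 on chromosome 3 and AT2G03875 at 7669 to 9399 on chromosome 2, and no exon, intron or UTR of a coding gene is annotated there. Ribosomal RNA genes are repeated many times in plant genomes.

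Base pairing was predicted with ViennaRNA from each reference, as the probability that a base is paired in a fragment of 121 bases with the site at its centre at 37 °C. C2860 was predicted to be paired in all species, at 0.910 in T. durum, 0.905 in C. taxifolia, 0.905 in N. oculata and 0.910 in G. biloba, against 0.910 in A. thaliana. Its most probable partner was the G 14 bases upstream, at a probability of 0.481 to 0.485. The base after C2860 was predicted to be paired at 0.935 to 0.964, and the base before it at 0.405 to 0.412.

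C2268 was predicted to be paired at 0.660 in T. durum, N. oculata and G. biloba, against 0.660 in A. thaliana. These 4 fragments have the same sequence, so the value is the same by construction. C. taxifolia differed, at 0.139, and its most probable partner had a probability of 0.1175. Methylation of C2268 was 79% in both C. taxifolia and N. oculata, whose predicted pairing was 0.139 and 0.660. Over 792 cytosines of A. thaliana 25S rRNA folded in the same way the median was 0.8895, and 74.0% were above 0.5. Of these cytosines, 32.1% had a lower value than C2268 and 53.2% a lower value than C2860. Neither site is at an extreme of that distribution.

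**Figure D4:**
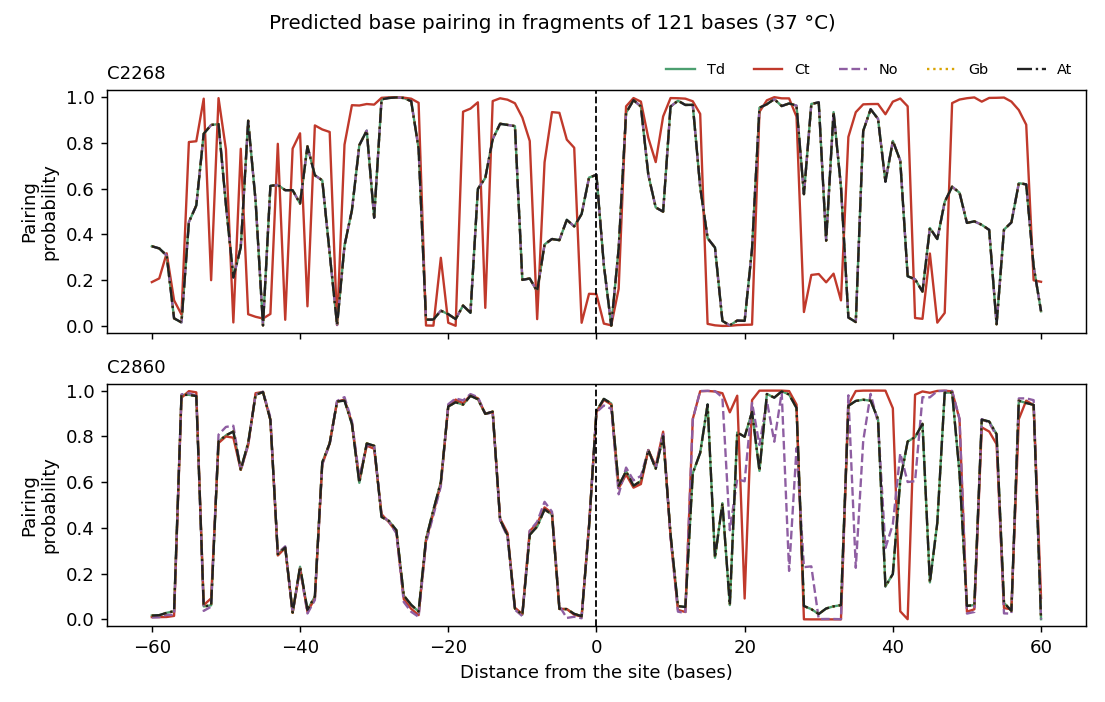
Predicted probability that each base is paired, by distance from C2268 (above) and C2860 (below) in bases, for the 5 distinct references in fragments of 121 bases. At distance 0 the C. taxifolia line is at 0.139 for C2268 and the other lines are at 0.660, while all lines are between 0.905 and 0.910 for C2860.

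The prediction for C2268 depended on the length of RNA that was folded. In 61 bases it was 0.0007 in all species, which leaves the cytosine unpaired. In 201 bases the T. durum value was 0.619, followed by 0.146 in C. taxifolia, 0.684 in N. oculata and 0.668 in G. biloba, against 0.619 in A. thaliana. With the whole 25S reference the T. durum value was 0.710, followed by 0.246 in C. taxifolia, 0.704 in N. oculata and 0.513 in G. biloba, against 0.573 in A. thaliana. The value in C. taxifolia was the lowest of the species at each length above 61 bases. C2860 stayed above 0.7 at each length, with its lowest value, 0.712, in 201 bases of C. taxifolia. The predictions do not include ribosomal proteins or tertiary contacts, and the most probable partners changed between lengths.

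**Figure D5:**
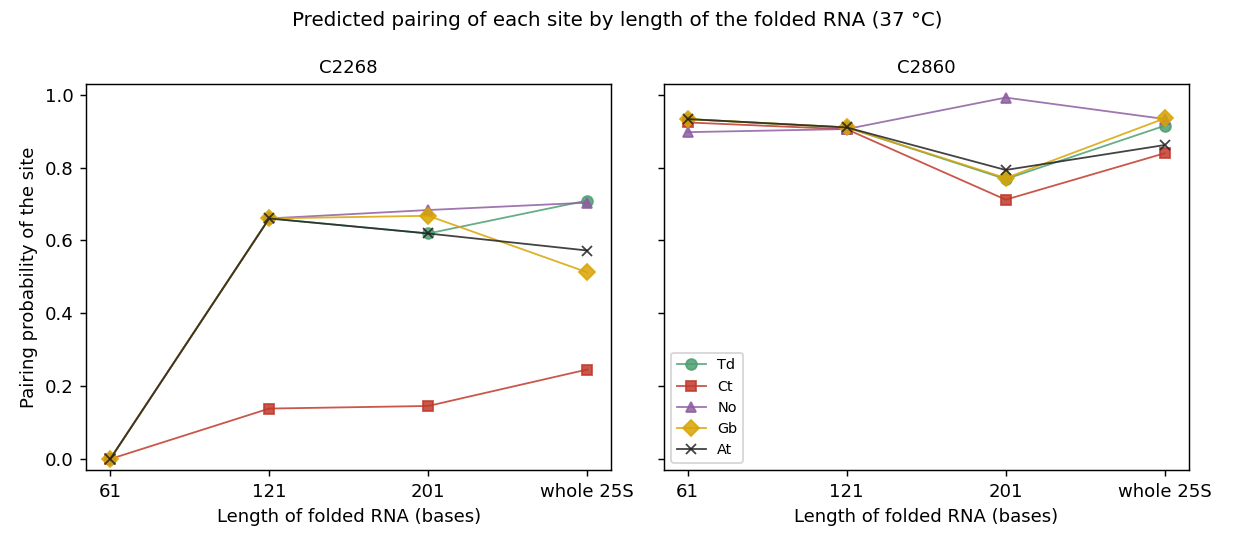
Predicted pairing probability of C2268 (left) and C2860 (right) against the length of folded RNA in bases, for the 5 distinct 25S references. C2268 moves from 0.0007 in 61 bases to between 0.139 and 0.660 in 121 bases, while C2860 stays between 0.712 and 0.992.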

How the data were processed

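Adapter trimming, quality filtering and alignment were done by the authors in CLC Genomics Workbench, version not given in the sources used here, against rRNA references with all cytosines changed to thymine. Other 25S references than that of A. thaliana were guided by it. A spike-in RNA without m5C was their conversion control. Deposited values were percent methylation (C over C plus T), rounded for called sites and used as given. Depth at a position is not known, and precision is limited to 1 value a species. Coordinates are those of TAIR10.1, whereas TAIR10 is named in the submitters' notes. Columns were assigned by species code.

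Species were compared by exact two-sided sign-flip permutation tests with Benjamini-Hochberg adjustment, tested on simulated data. The 25S references were aligned with MAFFT 7.526 (local pairs, 100 iterations), checked with pairwise alignments in Biopython 1.88, and folded with ViennaRNA 2.7.2 at 37 °C. Genome windows were matched exactly over the assembly. The chromosome 2 copy of the C2268 window came from its best placement without gaps, searched only near the start of that chromosome. Named are both 25S sites and the chloroplast 23S pair. Sites, comparisons and alternatives were chosen with earlier results of these data known. Alternatives covered each species left out, logit scale, medians, fold length and temperature, flank length and alignment. N. oculata sequences are described by their differences.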

Additional observations from a re-analysis of the deposited data

Results flagged for a closer look

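T. durum was the only species in which C2268 was methylated more than C2860, by 9 percentage points (91% against 82%), while the other 5 species differed in the opposite direction by 4 to 16 points. The difference between T. durum and the other species was not tested, since each species gave 1 value. The 6 listed 18S percentages of the same library were between 52% and 53%, against 0.0473% to 3.30% in the other species, and their part in the 25S levels was not tested. The T. durum sequence was identical to that of A. thaliana over 30 bases on each side of both sites.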

How the results depend on the processing

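Leaving out each species in turn gave a mean of C2268 minus C2860 from −8.2 to −3.2 points, an excess spread at C2268 from 1.4 to 4.2 points, a 25S minus 23S difference from −4.1 to −2.5 points and a difference in gap from 1.4 to 4.6 points. The direction was kept in each, and no p could go below 0.0625. On the logit scale the 25S minus 23S difference was −0.26 and passed 0.05 unadjusted (p = 0.03125, exact sign-flip permutation). That p is the smallest possible and rests on the change of sign in C. taxifolia. Mean pairing of C2268 was 0.5735, 0.5561 without B. rapa (chosen after seeing the data), and 0.0007 in 61 bases. That of C2860 was 0.9084, against 0.9254 in 61 bases, 0.8013 in 201 bases, 0.5516 at 70 °C and 0.903 in the whole reference. Flank identity at C2268 was 99% over 20 bases. The other 41 of 48 alternatives stayed within the spread over species or on the same side of the threshold. The tests pair sites within a species. Replicate numbers exist for A. thaliana alone and could not be used as a block. Read depth, the spread of the A. thaliana libraries and the origin of the B. rapa reference limit all levels.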
